A study of Rattus norvegicus with 6 samples.

Results

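The transcripts of 7 genes that move glucose and lactate across the cell membrane were examined in rat myocardium, with and without coronary occlusion. The genes were taken by name: the glucose transporters Slc2a1 (GLUT1), Slc2a3 (GLUT3), Slc2a4 (GLUT4) and Slc2a6 (GLUT6), the lactate transporters Slc16a1 (MCT1) and Slc16a3 (MCT4), and Bsg (basigin, CD147), the membrane glycoprotein that escorts MCT1 and MCT4 to the cell surface. All 7 were among the 32623 genes of the deposited table, and all 7 passed the filter of a mean of at least 0.5 FPKM (fragments per kilobase of gene length, scaled to library size), which left 13964 genes for testing.

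Total RNA was sequenced in 6 samples of myocardial tissue from wild-type male rats, 3 after a sham operation and 3 with ischemia. In the ischemia group the LAD coronary artery was tied off for 30 min and the ST segment of the electrocardiogram rose. The sham samples carry the same 30 min time in their titles, and anesthesia, ventilation and the opening of the chest are described for the rats in general. The labels give no strain, no age and no region of the heart, and they do not say whether each sample came from a single rat.

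Glucose enters cells down its gradient through facilitative transporters of the GLUT family. GLUT4 is the insulin- and contraction-responsive form of adult cardiac and skeletal muscle and is held in intracellular vesicles until called to the membrane, whereas GLUT1 sits at the membrane and serves basal uptake in most cells. When oxygen is short, pyruvate from glycolysis is reduced to lactate, which leaves or enters cells together with a proton through the monocarboxylate transporters. MCT1 has a high affinity for lactate and is the main form of the heart, and MCT4 has a low affinity and is typical of highly glycolytic cells such as fast muscle fibers and activated leukocytes. These roles are background and concern protein, while the values that follow are transcript levels.

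The libraries held 68529126 to 79591989 counts, and the floor set by a count of 3 was 0.0377 to 0.0438 CPM (counts relative to the library total), for counting error alone. Several libraries stood apart. Over 4 Y-linked genes, 1762 to 4367 reads were counted in the other libraries but only 4 in sham replicate 1, which goes against its male label. The summed FPKM of 4 atrial markers was 48341 and 39203 in sham replicates 1 and 3 but 215 in sham replicate 2, and 9610, 2078 and 1279 in ischemia replicates 1, 2 and 3. The atrial sums therefore differed within the sham group as well as between the groups, and the tissue sampled was not the same mixture in each library. Of the ventricular cardiomyocyte list, whose 8 genes had a summed FPKM of 25145 to 42131 in sham and 11913 to 23056 in ischemia, genes that atria also express (Actc1, Myh6, Tnnt2 and Tnni3) carried most. The ventricular light chains Myl2 and Myl3 had 366 and 796 FPKM in sham replicate 1 and 346 and 1021 in sham replicate 3, below every ischemia library (594 to 1315 and 3180 to 5780), against 2795 and 9024 in sham replicate 2. In bulk tissue, fewer cells of a type and less RNA per cell cannot be told apart.

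The 250 bases before the annotated start of Slc2a1 and Slc16a3 are shown because these genes had the largest positive differences among the 7 and the most alike patterns across samples. The sequences are from RefSeq (build GRCr8, both on the plus strand), and capitals mark every match, on either strand, to the hypoxia-response core in its forms ACGTG and GCGTG and to the AP-1 type motif TGANTCA.
Slc2a1 (chr5:138002272-138002521): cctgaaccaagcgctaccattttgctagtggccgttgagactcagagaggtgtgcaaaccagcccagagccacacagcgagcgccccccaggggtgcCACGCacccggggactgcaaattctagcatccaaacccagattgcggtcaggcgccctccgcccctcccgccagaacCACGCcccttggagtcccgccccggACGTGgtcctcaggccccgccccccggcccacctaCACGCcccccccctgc
Slc16a3 (chr10:106712078-106712327): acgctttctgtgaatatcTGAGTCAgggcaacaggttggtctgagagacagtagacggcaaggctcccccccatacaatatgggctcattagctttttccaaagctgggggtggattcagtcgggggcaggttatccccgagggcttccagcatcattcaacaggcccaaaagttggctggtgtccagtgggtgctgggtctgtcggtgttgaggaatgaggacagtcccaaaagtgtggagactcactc
The Slc2a1 window held 1 ACGTG and 3 GCGTG matches, the nearest of them beginning 16 bases before the start. The Slc16a3 window held neither of these cores but 1 TGANTCA match, 232 bases before the start. Of the 7 genes, 5 had an entry (Slc2a3 and Slc2a4 are named only), and 4 of those 5 held ACGTG or GCGTG, as did 36.7% of 33469 RefSeq windows of the same length. These 4 windows were 63.6% to 74.0% G or C and that of Slc16a3 was 54.0%. The share over all windows was not matched for this content, so it sets no expected number for these genes. Bsg and Slc16a1 each held CACGTG, which contains ACGTG on both strands and was counted for each. TGANTCA was present in 6.34% of all windows. A match is only a run of letters, and no match says only that these letters are not in this window.

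No gene of the 7 passed an adjusted p of 0.05 in the edgeR quasi-likelihood test of ischemia against sham over all genes, in which 6.71% of tested genes did (5.18% higher and 1.53% lower). At an unadjusted p under 0.05 there were 4, Slc2a1, Slc2a3 and Slc16a3 with higher values in ischemia and Slc2a4 with lower values, while 4528 of all 13964 tested genes lay under that limit. DESeq2 called the same 4 genes, 3 higher and 1 lower, beside 14.8% and 12.5% of all genes. limma on log2(FPKM + 0.1) called Slc16a3 higher and Slc2a4 lower, beside 6.09% and 1.88%. By single samples, 3 genes (Slc2a1, Slc2a6, Slc16a3) had every ischemia value above every sham value and 1 (Slc2a4) had every value below. Over all tested genes the corresponding shares were 23.6% and 15.0%. The median log2 fold change of the 7 genes was 0.92, with 5 positive and 2 negative, beside a median of -0.0015 and quartiles of -0.56 and 0.57 over all tested genes.

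**Figure D1:**
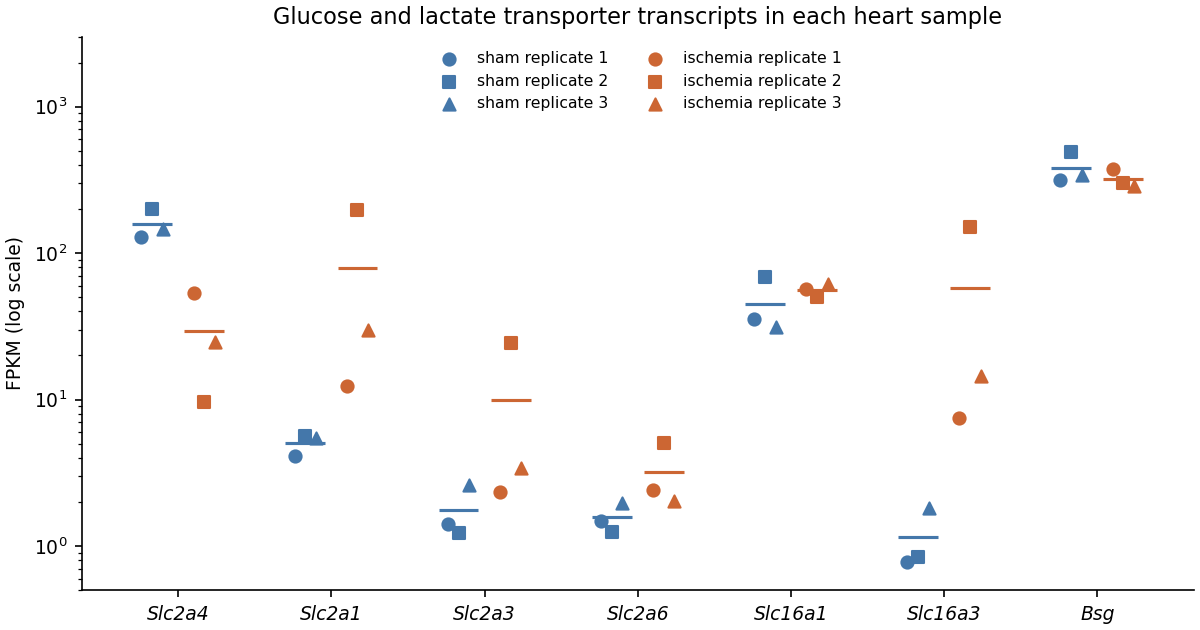
FPKM (log scale) of the 7 genes in each of 3 sham and 3 ischemia samples, with points for samples and horizontal lines for group means. Slc2a4 lies between 128.1 and 201.0 in sham and between 9.65 and 53.7 in ischemia, while Slc2a1 and Slc16a3 are higher in all 3 ischemia samples, most of all in replicate 2.

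In the sham heart the order of the levels by median FPKM was Bsg, Slc2a4, Slc16a1, Slc2a1, Slc2a6, Slc2a3 and Slc16a3. The first 4 of these were separated from the next gene down in all 3 samples with no overlap of ranges, whereas Slc2a6, Slc2a3 and Slc16a3 all lay between 0.774 and 2.63 FPKM and did not differ from their neighbors beyond their spread. In ischemia Bsg remained apart at the top, and below it the order was Slc16a1, Slc2a1, Slc2a4, Slc16a3, Slc2a3 and Slc2a6, with overlapping ranges at every step.

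Slc2a4, the muscle and fat glucose transporter, was the leading glucose carrier of the sham samples. Its FPKM was 128.1, 201.0 and 147.2 in sham replicates 1, 2 and 3 and 53.7, 9.65 and 24.7 in ischemia replicates 1, 2 and 3. All ischemia values lay below all sham values, and ischemia replicate 2 was lowest. The group means were 158.7 ± 37.8 and 29.4 ± 22.4 FPKM (SD, n = 3 each), and the edgeR log2 fold change was -2.53 ± 0.67 (SE), which corresponds to a 5.80-fold lower level, with an adjusted p of 0.0667. An exact two-sided permutation test of FPKM gave p = 0.1, the smallest that 3 against 3 allows. Relative to the ventricular cardiomyocyte marker sum of the same library, a scaling chosen after the values were seen, Slc2a4 amounted to 4.79, 4.77 and 5.85 per 1000 FPKM in sham and to 2.33, 0.810 and 1.13 in ischemia. This sum is carried by genes that atria also express, and its members Myl2 and Myl3 were lower in sham replicates 1 and 3 than in any ischemia library, so it does not measure ventricular cardiomyocytes alike across libraries. The gene is ENSRNOG00000017226 at chr10:56552983-56558487 on the minus strand of the table's genome, whose build is not given in the sources used here (this holds for all positions from the table).

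Slc2a1, the widely expressed basal glucose transporter, showed the opposite pattern. Its FPKM was 4.15, 5.60 and 5.46 in sham and 12.4, 196.6 and 29.9 in ischemia, from 820 to 1177 and from 2647 to 38220 counts. Every ischemia sample was above every sham sample, but ischemia replicate 2 exceeded the other 2 ischemia samples by far. The means were 5.07 ± 0.80 and 79.6 ± 101.7 FPKM (SD, n = 3 each). The edgeR log2 fold change was 3.79 ± 1.01 (a 13.9-fold higher level, adjusted p = 0.0687). The exact permutation test of FPKM gave p = 0.1 here as well. Without ischemia replicate 2 the log2 fold change was 2.01 ± 0.43, with an edgeR adjusted p of 0.0662. The gene is ENSRNOG00000007284 at chr5:138154673-138182897, plus strand.

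Slc2a3, a high-affinity glucose transporter of neurons and of many blood cells, was low in sham at 1.41, 1.23 and 2.63 FPKM. It reached 2.34, 24.2 and 3.41 FPKM in ischemia, so that replicate 1 fell within the sham range and the groups overlapped. The edgeR log2 fold change of 2.37 ± 0.90 (adjusted p = 0.132) rested on replicate 2, without which it was 0.70 ± 0.41. The exact permutation p of FPKM was 0.2. The gene is ENSRNOG00000049298 at chr4:155752447-155763500, minus strand.

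Slc2a6, a less studied family member found in leukocytes and lysosomal membranes, had 1.49, 1.25 and 1.96 FPKM in sham and 2.42, 5.09 and 2.03 in ischemia. The groups did not overlap, although sham replicate 3 and ischemia replicate 3 were nearly equal. The edgeR log2 fold change was 0.92 ± 0.38 with an adjusted p of 0.155, and 0.47 ± 0.28 without ischemia replicate 2. The gene (ENSRNOG00000005900, chr3:5568321-5575136, minus strand) overlaps Cacfd1 on the other strand by 3744 bases, and the strand setting of the counting is not given in the sources used here, so reads of the overlap cannot be assigned with certainty.

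Because FPKM is scaled to length, the 4 glucose transporter genes could be set side by side within a sample. Their summed FPKM was 135.1, 209.1 and 157.2 in sham and 70.8, 235.5 and 60.1 in ischemia, with overlapping groups (exact permutation p = 0.6). The makeup of this sum differed more than its size. Slc2a4 made up 94.8%, 96.1% and 93.6% of it in sham but 75.8%, 4.10% and 41.2% in ischemia. Slc2a1 made up 3.07%, 2.68% and 3.47% in sham and 17.5%, 83.5% and 49.8% in ischemia. In sham the Slc2a4 level was 27.0 to 35.9 times that of Slc2a1, in ischemia replicate 1 it was 4.33 times, and in ischemia replicates 2 and 3 Slc2a1 exceeded Slc2a4 by 20.4 and 1.21 times. The log2 ratio of Slc2a1 to Slc2a4 was -4.96 ± 0.21 in sham and 0.84 ± 3.27 in ischemia (SD, n = 3 each), a difference of 5.79. Its exact permutation p was 0.1, also after Benjamini-Hochberg adjustment over the 2 planned ratios, this one and that of Slc16a3 to Slc16a1. That difference was 4.03 without ischemia replicate 2 and 7.27 without ischemia replicate 1.

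**Figure D2:**
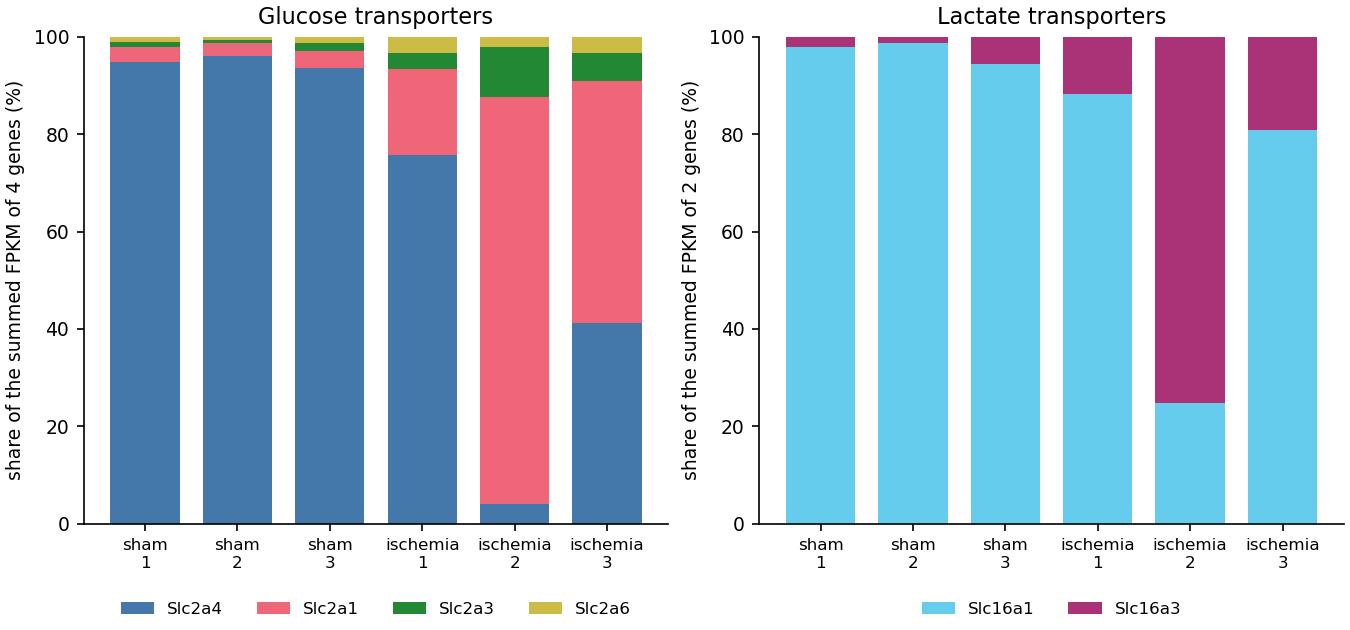
Stacked bars give, for each sample, the share (%) of each gene in the summed FPKM of the 4 glucose transporters (left) and of the 2 lactate transporters (right). Slc2a4 holds over 93% of the left bar in each sham sample and 4.10% to 75.8% in ischemia, and Slc16a3 holds at most 5.51% of the right bar in sham and 11.7% to 75.1% in ischemia.

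Slc16a3, the low-affinity lactate carrier MCT4, was the least abundant of the 7 in sham by its median and had the largest log2 fold change. Its FPKM was 0.774, 0.846 and 1.83 in sham (127, 147 and 286 counts) and 7.49, 151.1 and 14.6 in ischemia (1324, 24302 and 2222 counts). The groups were well separated, with ischemia replicate 2 far above the rest. The log2 fold change was 5.50 ± 1.27 (45.2-fold) with an edgeR adjusted p of 0.0517, just outside the threshold, and its rank was 95 from the top of 13964 genes. Without ischemia replicate 2 the log2 fold change was 3.25 ± 0.49 and passed the test (edgeR adjusted p = 0.0369), as it did without ischemia replicate 1 (0.0223). It did not pass without sham replicate 1, 2 or 3 (0.178, 0.127 and 0.149) or without ischemia replicate 3 (0.125). In those fits no gene of the whole table was called. The gene is ENSRNOG00000036677 at chr10:110138586-110148358, plus strand.

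Slc16a1, the high-affinity carrier MCT1, showed no such pattern. In sham it had 35.6, 68.2 and 31.4 FPKM, and in ischemia 56.5, 50.1 and 61.7. The ischemia samples lay close together within the sham range, whose top was sham replicate 2. That library had an atrial marker sum of 215 FPKM, against 48341 and 39203 in sham replicates 1 and 3. Within sham, the Slc16a1 level and the tissue mixture thus differed together, and a link between them was not tested. The log2 fold change was 0.17 ± 0.41 (edgeR adjusted p = 0.792), an error that leaves changes of moderate size in either direction undetectable here. It was -0.026 without sham replicate 1, -0.083 without sham replicate 3 and 0.76 without sham replicate 2. The gene is ENSRNOG00000019996 at chr2:207108552-207128554, plus strand. The ratio of Slc16a3 to Slc16a1 was 0.0217, 0.0124 and 0.0583 in sham and 0.132, 3.02 and 0.236 in ischemia. On the log2 scale the ratio was 4.18 higher in ischemia (exact permutation p = 0.1), 2.82 higher without ischemia replicate 2 and 5.08 higher without ischemia replicate 1. Slc16a1 was the more abundant lactate carrier in 5 of 6 samples, the exception being ischemia replicate 2.

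Bsg, the chaperone of both lactate carriers, was the most abundant of the 7 genes in every sample. Its FPKM was 313.4, 488.3 and 343.3 in sham and 378.1, 302.6 and 285.1 in ischemia, and the groups overlapped. The log2 fold change was -0.37 ± 0.32 (edgeR adjusted p = 0.443), and it was -0.013 without sham replicate 2, the highest sample, and -0.54 without sham replicate 1. The log2 ratio of Bsg to the summed FPKM of the 2 lactate carriers was 3.11, 2.82 and 3.37 in sham and 2.56, 0.59 and 1.90 in ischemia, lower in each ischemia sample than in any sham sample. This ratio was not among the 2 planned ratios, and its exact permutation p was 0.1, the smallest that 3 against 3 allows. The gene is ENSRNOG00000008414 at chr7:12875537-12882753, minus strand.

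Single samples decided some calls. Leaving out ischemia replicate 1 brought Slc2a1 (4.28), Slc16a3 (6.00) and Slc2a4 (-3.31, log2 fold changes) past the threshold, in a fit that called 10.7% of genes higher and 7.98% lower. Leaving out ischemia replicate 2 brought only Slc16a3 past it among the 7, with 3.31% of genes called higher and 0.781% lower. Without sham replicate 1, whose Y-linked reads went against its label, the log2 fold changes were 3.63 for Slc2a1, 5.26 for Slc16a3 and -2.71 for Slc2a4, with edgeR adjusted p from 0.172 to 0.205 and no gene called in the whole table. With an atrial score as a covariate they were 2.52 for Slc2a1, 4.42 for Slc16a3 and -2.50 for Slc2a4 (edgeR adjusted p = 0.374, 0.307 and 0.186), again with no gene called in the whole table.

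**Figure D3:**
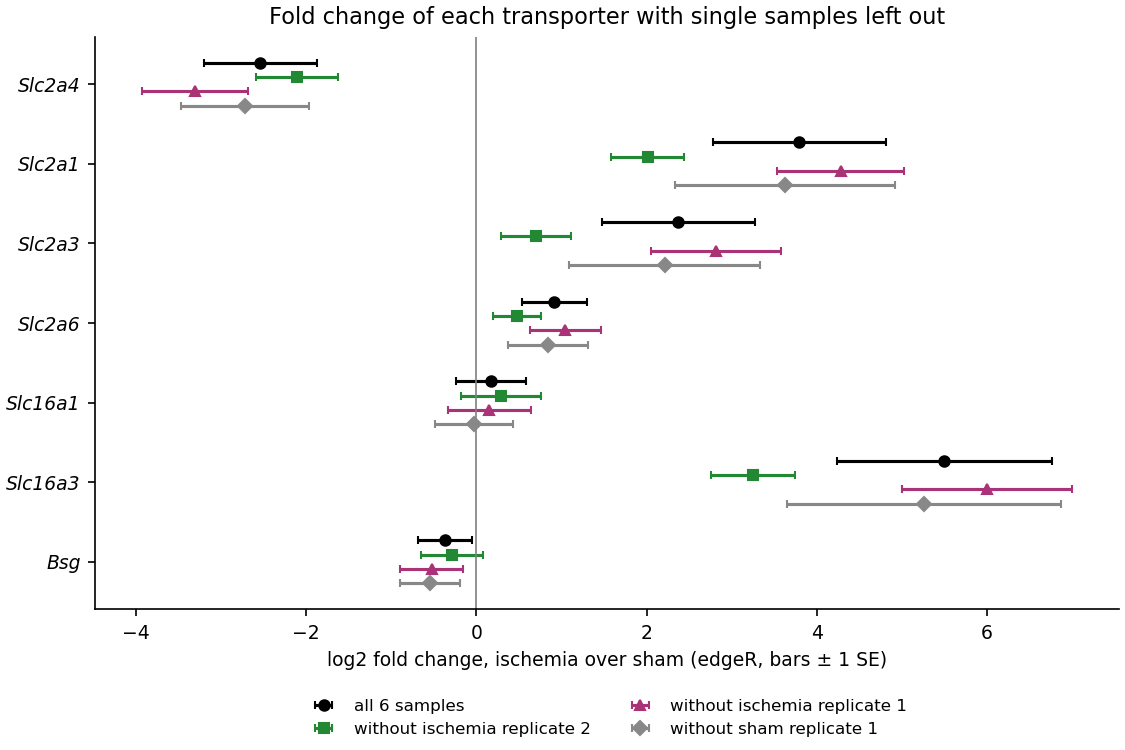
edgeR log2 fold changes of ischemia over sham (x axis, bars ± 1 SE) for each gene with all 6 samples and with single samples left out. Slc16a3, Slc2a1 and Slc2a4 keep their sides of 0 in all 4 fits, and Slc2a3 lies at 2.37 with all samples and at 0.70 without ischemia replicate 2.

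Markers of other cell types differed between the same samples. Of 10 neutrophil markers 9 were tested and all 9 rose (edgeR adjusted p under 0.05, median log2 fold change 6.11), and their summed FPKM was 13.7 to 31.2 in sham and 1460, 3832 and 830 in ischemia replicates 1, 2 and 3. Retnlg and Fpr1 had no counts in any sham sample. Macrophage markers had similar sums, 199.7 to 280.3 in sham and 235.9 to 349.1 in ischemia, where Cd68 and Cd163, 2 of 8 markers, rose. Every ischemia value lay above sham for 4 of these 8 (Cd68, Cd163, Csf1r at a log2 fold change of 1.06 and Mrc1 at 1.25) and below sham for 2 (C1qa at -0.66 and C1qc at -0.42). The groups overlapped for Adgre1 (-1.13) and C1qb (-0.033). For ventricular cardiomyocyte markers the median was -0.69 and 0 of 8 passed. Myh6 (-2.38, edgeR adjusted p = 0.0510), Actc1 (-1.70, 0.0536) and Ryr2 (-1.51, 0.0696) had every ischemia value below every sham value, as Slc2a4 did. The groups overlapped for Myl2 (-0.38), Myl3 (0.20), Tnnt2 (-0.43), Tnni3 (-0.59) and Pln (-0.79). Over all tested genes, 15.0% had every ischemia value below every sham value.

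Ischemia replicate 2 had both the highest neutrophil sum and the highest Slc2a1, Slc2a3 and Slc16a3, and also the lowest cardiomyocyte sum and the lowest Slc2a4. Ischemia replicate 1 had a higher neutrophil sum than replicate 3, most of the gap being Lcn2 (952.1 against 337.2 FPKM). Without Lcn2, a sum chosen after the values were seen, the libraries had 508.1 and 492.8 FPKM, and 4 of the other 8 tested markers were higher in replicate 3. Slc2a1 (12.4 against 29.9 FPKM) and Slc16a3 (7.49 against 14.6) were lower in replicate 1. With a neutrophil score as a covariate, which correlated with the group at 0.955, the log2 fold changes became -3.64 ± 1.30 for Slc2a1, -3.07 ± 1.96 for Slc16a3 and 0.82 ± 1.79 for Slc2a4 (SE), with no gene of the table called. In these samples the neutrophil signal and ischemia cannot be told apart, and the part of these cells in the transporter levels was not tested. Of the remaining marker sums, fibroblast genes had 698 to 2247 FPKM in sham and 271 to 706 in ischemia, adipocyte genes (cells that also use Slc2a4) 43.8 to 309.8 and 8.45 to 69.6, smooth muscle genes 113 to 839 and 50.5 to 221, and none of these lists had a gene called. Endothelial sums were 135 to 143 and 125 to 174, erythroid sums 4337 to 7967 and 5140 to 10033, platelet sums 21.9 to 55.3 and 63.2 to 172.1, and skeletal muscle sums 0.746 to 3.31 and 3.30 to 10.03, also with 0 called.

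**Figure D4:**
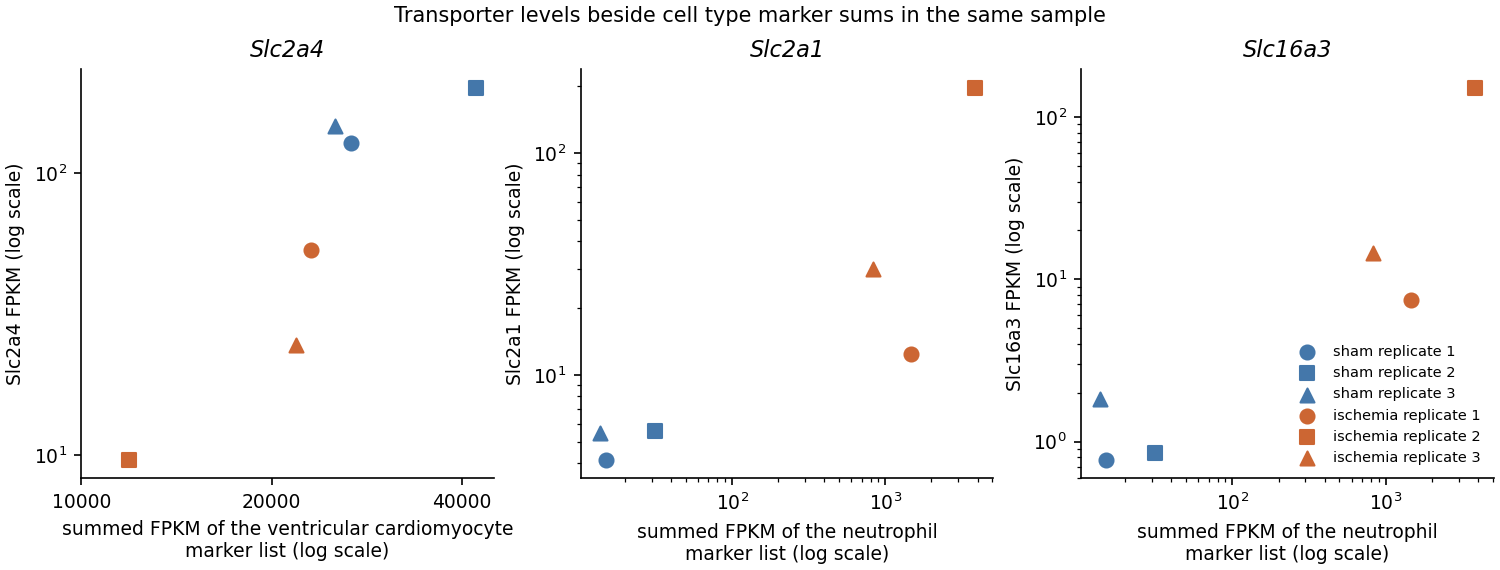
FPKM of Slc2a4 against the summed FPKM of ventricular cardiomyocyte markers, and of Slc2a1 and Slc16a3 against that of neutrophil markers, in each sample (all axes log scale). The 3 ischemia samples lie far to the right of sham for neutrophil markers, with replicate 2 at the top right, and replicate 1 lies lower than replicate 3 and to its right, a gap that narrows to 508.1 against 492.8 FPKM without the marker Lcn2.

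The 7 genes were then placed among 5 lists of other genes of glucose and lactate handling. Of 88 genes, 85 were in the table (5 under an older symbol) and 67 were tested, of which 3 passed the edgeR test as higher and 0 as lower, beside 5.18% and 1.53% of all tested genes. A count of 3 in 67 is near that background and is not a result about the lists, nor are the counts of single lists that follow. These 3 calls were lost when any sham sample or ischemia replicate 3 was left out, as were all calls in the table. Of the 23 tested genes of GLUT4 vesicle traffic and insulin signal, 0 passed in either direction, and the median log2 fold change was -0.014. They ranged from -1.004 for Sort1, a sorting receptor of GLUT4 vesicles, to 1.10 for Tbc1d1, a Rab GTPase-activating protein that holds these vesicles back. In Tbc1d1 the FPKM was 3.84, 3.71 and 4.31 in sham and 4.69, 12.1 and 10.3 in ischemia (adjusted p = 0.0926). The kinase Akt2, which relays the insulin signal to GLUT4, had 81.6, 76.6 and 90.2 FPKM in sham and 61.1, 38.7 and 41.8 in ischemia, without passing the test (log2 fold change -0.89, adjusted p = 0.0698). This gene was chosen after its values were seen.

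Among 6 tested genes of 13 other glucose carriers, 0 passed, with a median log2 fold change of -1.15 and a range from -1.89 (Slc2a10) to 0.20 (Slc50a1). Among 10 tested of 18 other monocarboxylate carriers and chaperones, the median was -0.45 and the lowest was Slc16a12 at -3.03 (edgeR adjusted p = 0.0654). Its FPKM was 7.19, 0.748 and 3.94 in sham and 0.709, 0.290 and 0.435 in ischemia, so sham replicate 2 lay near ischemia replicate 1. In this list 1 gene rose. That gene was Emb (embigin), an immunoglobulin-family relative of basigin that also escorts monocarboxylate transporters. Emb had 1.21, 0.676 and 1.86 FPKM in sham and 5.64, 54.3 and 11.9 in ischemia, with ischemia replicate 2 again highest and no overlap of groups. Its log2 fold change was 4.15 ± 0.89 (edgeR adjusted p = 0.0484), while Bsg, at far higher FPKM in every sample, did not pass.

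Lactate dehydrogenases and acid-handling genes had 14 tested of 17, with 0 passing, a median of -0.36 and a range from -3.90 (Ca3, a muscle and fat carbonic anhydrase) to 1.84 (Ca4, a membrane-bound carbonic anhydrase). Ldha, which makes lactate from pyruvate, had 615.2, 572.8 and 593.6 FPKM in sham and 856.9, 1136.5 and 684.1 in ischemia. Its groups did not overlap, but its log2 fold change of 0.48 ± 0.24 did not pass (edgeR adjusted p = 0.215), and it too was chosen after its values were seen. Of 14 tested transcription factors known to act on transporter genes, 2 rose, with a list median of -0.083 and Klf15, a factor that acts on Slc2a4, lowest at -1.32. Myc, a factor known to act on Slc2a1, was highest, with 2.43, 1.89 and 2.87 FPKM in sham and 29.8, 74.6 and 46.3 in ischemia (log2 fold change 4.29 ± 0.35, edgeR adjusted p = 0.0246). Hif1a, the oxygen-regulated factor whose control is largely at the protein level and which was also chosen after its values were seen, had 10.5, 4.83 and 9.63 FPKM in sham and 15.2, 70.7 and 23.1 in ischemia, with groups that did not overlap, and did not pass the test (adjusted p = 0.0756).

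**Figure D5:**
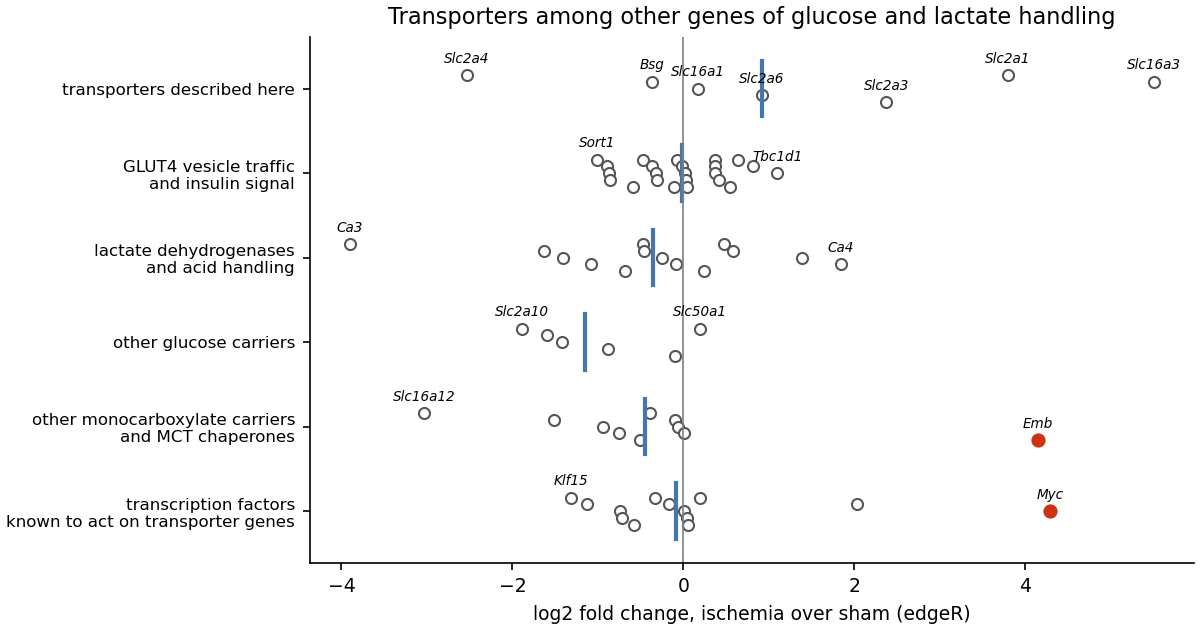
edgeR log2 fold changes of ischemia over sham for the 7 transporters and for the tested genes of 5 lists, with 1 transcription factor left out. Filled points passed an adjusted p of 0.05, blue lines are list medians, and labels give all 7 transporters and the ends of each list. The filled points are Emb and Myc.

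Across the 6 samples, the levels of the transporters fell into a few patterns, described here by Pearson's r of log2 CPM, on samples that share library and group. Slc2a1 and Slc16a3 had r = 0.979 with each other, and Slc2a4 had r = -0.944 and -0.970 with them, while Slc16a1 and Bsg had r of 0.200 and -0.455 with Slc2a1. The 3 genes most like Slc16a3 were Apbb1ip, Gmfg and Emilin2 (r from 0.997 to 0.998), of which Gmfg and Emilin2 passed the edgeR test (log2 fold changes 2.63 and 2.05). Those most like Slc2a1 were Il10ra (an interleukin-10 receptor chain of leukocytes), Dram1 and Fmnl1 (r of 0.997 to 0.998). Nearest to Slc2a4 were Lyrm7 (a respiratory complex III assembly factor), Cyp2d4 and Mpst (a mitochondrial and cytosolic sulfurtransferase), each with r = 0.999. The nearest genes were Aurka, F11r and Atp13a2 for Slc2a3, Btg3, Tnfrsf18 and Vta1 for Slc2a6, Zfp710, Tasp1 and Scarf1 for Slc16a1, and Aldoa (the muscle form of the glycolytic enzyme aldolase), Polrmt and Tomm22 for Bsg, with r from 0.984 to 0.998. With 6 samples and 13964 genes, values of this size are a ranking of likeness only.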

How the data were processed

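Total RNA of 6 rat myocardium samples was made into libraries with a stranded total RNA kit. STAR and HTSeq are named in the submitters' processing notes, and versions, genome build and strand setting are not given in the sources used here. The authors deposited 1 table with raw read counts per gene and sample. The same deposited table holds FPKM values, which the authors computed from counts, gene length and library size, with 0.0001 for genes without counts.

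Groups and replicate numbers were taken from the labels. Counts were tested with edgeR 4.0.16 (R 4.3.3, TMM factors, quasi-likelihood F test, two-sided, Benjamini-Hochberg over 13964 genes with a mean of at least 0.5 FPKM), and standard errors were derived from the F statistic. DESeq2 1.42.0, limma 3.58.1 (log2 of FPKM plus 0.1), other scalings and filters, a replicate block, 2 covariates and leaving out each sample were alternatives. Single values were compared by exact permutation tests (scipy 1.17.1). The edgeR test was tested on simulated data. Since the labels do not tie samples to separate rats, p-values measure only the spread between these samples.

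The transporters and gene lists were chosen with earlier results of these data known. Named genes are the transporters, in each list the genes past the threshold and the highest and lowest tested gene, and for each transporter the 3 genes with the highest correlation of log2 CPM, passing over placeholder names. Akt2, Ldha, Hif1a and the marker genes are outside this rule and were named after their values were seen. Promoter windows came from RefSeq (GRCr8). The result of 1 gene from the lists is not reported here.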

Additional observations from a re-analysis of the deposited data

How the results depend on the processing

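DESeq2 brought Slc2a1 (log2 fold change 3.76), Slc2a3 (2.34), Slc2a4 (-2.57) and Slc16a3 (5.46) past the threshold, so that 3 transporters were called higher and 1 lower. It called 7 of 67 list genes higher and 10 lower, beside 14.8% and 12.5% of all tested genes, which is not a result about the lists. Slc2a4 also passed with limma at a pseudocount of 0.1 (-2.73), 1 (-2.67) and 0.01 (-2.74), which gave 1 transporter lower each (lower over all genes 262, 209 and 204 of 13964), and Slc16a3 passed at 0.1 (4.45), at 0.01 (4.57) and with a filter of 5 FPKM (5.47), which gave 1 higher each (higher over all genes 850 and 781 of 13964 and 725 of 8156). That filter called 2 list genes (291 of all genes) lower and removed Slc2a6. With the neutrophil covariate the values turned for Slc2a1 (-3.64), Slc2a3 (-4.27), Slc2a4 (0.82), Slc2a6 (-1.22), Slc16a1 (-0.051) and Slc16a3 (-3.07), and with the atrial covariate for Slc16a1 (-0.090), and both called 0 list genes higher and no gene of the table. Leaving out each sample gave 2.01 to 4.28 for Slc2a1, -3.31 to -2.11 for Slc2a4, -0.083 to 0.76 for Slc16a1 (negative without sham replicate 1, -0.026, and without sham replicate 3, -0.083), 3.25 to 6.00 for Slc16a3 and -0.54 to -0.013 for Bsg. It gave 0 to 2 transporters called higher and 0 to 1 lower, 0 to 5 list genes higher and 0 to 5 lower, and 1 to 2 transporters with all ischemia values below sham. The upper ends of all these counts are from the fit without ischemia replicate 1, where 1490 of 13964 genes were called higher, 1115 lower, and 25.8% had all ischemia values below sham. Same-numbered samples did not deviate together (correlations from -0.196 to -0.056). With a replicate block the log2 fold changes were 2.93 for Slc2a1, -2.78 for Slc2a4 and 4.33 for Slc16a3 (edgeR adjusted p from 0.124 to 0.155). That fit called 0 list genes higher and no gene of the whole table. The cause of these shifts was not tested. Other scalings, no filter and leaving out the mitochondrial genome changed no direction or call of a transporter. Depth is not limiting for the transporters, which had at least 127 counts in each sample.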
